A study of Mus musculus with 12 samples.

Results

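The genes described here are 46 developmental transcription factor genes, of the homeobox, T-box, GATA, paired box, forkhead and bHLH families, that Polycomb proteins typically hold silent in pluripotent cells. They were chosen by name, with Hox genes left out. Of the 46, 42 had 10 or more counts summed over the 12 libraries and are the members, out of 19630 named genes in the table. Nkx2-2, Lhx9, Olig2 and Six3 had fewer and are not described further.

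Total RNA was sequenced from 4 groups of 3 libraries each, covering E14 mouse embryonic stem cells (mESCs) and the epiblast-like cells (EpiLCs) made from these. All 4 groups re-express EPOP, either the wild-type (WT) protein or a mutant. The mESCs grew on gelatin in 2i/LIF, which contains 1 μM of the MEK inhibitor PD0325901 and 3 μM of the GSK3 inhibitor CHIR99021 and holds the cells in the naive state. The EpiLCs were made on fibronectin with 20 ng/ml activin A and 12 ng/ml bFGF. The sources used here do not give the mutation, what EPOP the host cells still make, or whether a line is 1 clone. The mutant libraries carry the code D5 in the count table, which the labels do not spell out. It was taken as the mutant because mutant EPOP is the sole genotype besides WT in the labels.

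Polycomb repressive complex 2 (PRC2) places methyl groups on lysine 27 of histone H3, and PRC1 binds and compacts the marked chromatin. Both gather at CpG-rich promoters of lineage regulators, which are kept at low levels in pluripotent cells and become active when a lineage is chosen. PRC2 exists in forms that differ in their accessory proteins. EPOP belongs to PRC2.1, together with a Polycomb-like protein such as MTF2, which binds unmethylated CpG DNA. The series asks how EPOP limits the binding of PRC2.1 to chromatin, and the RNA comparisons bear on which transcripts change when the mutant replaces WT EPOP. No histone mark or binding data were used here.

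The promoters of 6 members are shown because they are the members called lower in both states or higher in either: Foxc1, Barx1, Foxd1 and Tbx1 were lower in mutant cells of both states, Nkx6-2 was higher in mutant mESCs and Meis2 was higher in mutant EpiLCs. They are not ranked by size of effect, and En2 and Irx5, which differed in mESCs, had no window among those matched. Each sequence runs 5′ to 3′ on the strand of the gene, from 250 bases before the RefSeq start to 50 after it (GRCm38.p6), with every CpG (CG, which reads the same on both strands) in capitals.
Foxc1, chr13:31806396-31806695, plus strand: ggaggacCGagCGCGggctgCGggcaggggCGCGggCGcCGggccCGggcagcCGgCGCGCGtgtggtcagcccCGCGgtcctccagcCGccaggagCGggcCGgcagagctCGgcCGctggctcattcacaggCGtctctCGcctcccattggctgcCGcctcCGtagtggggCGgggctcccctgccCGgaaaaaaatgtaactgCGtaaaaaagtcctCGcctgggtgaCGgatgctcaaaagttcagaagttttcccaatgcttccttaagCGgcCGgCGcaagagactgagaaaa
Barx1, chr13:48662786-48663085, plus strand: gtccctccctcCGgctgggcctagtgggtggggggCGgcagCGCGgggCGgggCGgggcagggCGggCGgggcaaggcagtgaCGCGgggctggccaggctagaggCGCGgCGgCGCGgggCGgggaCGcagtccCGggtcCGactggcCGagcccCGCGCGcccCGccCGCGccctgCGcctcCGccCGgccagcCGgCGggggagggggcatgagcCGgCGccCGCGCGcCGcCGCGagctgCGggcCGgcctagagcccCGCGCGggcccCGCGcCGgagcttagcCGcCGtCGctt
Foxd1, chr13:98353995-98354294, plus strand: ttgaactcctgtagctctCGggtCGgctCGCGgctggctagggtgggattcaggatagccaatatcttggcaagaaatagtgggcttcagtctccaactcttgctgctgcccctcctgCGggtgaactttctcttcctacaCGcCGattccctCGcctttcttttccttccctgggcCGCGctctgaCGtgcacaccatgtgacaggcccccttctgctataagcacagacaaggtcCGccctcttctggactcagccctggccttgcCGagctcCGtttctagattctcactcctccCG
Tbx1, chr16:18590622-18590921, minus strand: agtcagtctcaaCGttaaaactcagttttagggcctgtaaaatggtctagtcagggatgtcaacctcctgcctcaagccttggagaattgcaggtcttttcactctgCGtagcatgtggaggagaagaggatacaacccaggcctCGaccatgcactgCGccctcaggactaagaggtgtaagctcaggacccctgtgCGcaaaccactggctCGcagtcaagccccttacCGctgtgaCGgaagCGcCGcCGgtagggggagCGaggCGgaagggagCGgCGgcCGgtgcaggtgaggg
Nkx6-2, chr7:139582748-139583047, minus strand: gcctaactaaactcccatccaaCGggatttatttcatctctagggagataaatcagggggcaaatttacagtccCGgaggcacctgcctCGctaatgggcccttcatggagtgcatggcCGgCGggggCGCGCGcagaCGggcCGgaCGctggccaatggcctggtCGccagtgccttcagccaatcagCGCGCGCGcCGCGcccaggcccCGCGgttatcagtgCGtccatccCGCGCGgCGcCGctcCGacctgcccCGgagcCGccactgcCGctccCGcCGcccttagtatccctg
Meis2, chr2:116064570-116064869, minus strand: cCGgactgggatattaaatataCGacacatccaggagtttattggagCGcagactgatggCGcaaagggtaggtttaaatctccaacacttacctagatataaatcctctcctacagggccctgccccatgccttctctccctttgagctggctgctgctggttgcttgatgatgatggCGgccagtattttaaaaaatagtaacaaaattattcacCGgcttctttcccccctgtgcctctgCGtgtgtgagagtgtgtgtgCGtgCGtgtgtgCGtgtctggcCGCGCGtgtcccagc
The Barx1 window held 50 CpG, more than 99.1% of the 32851 promoter windows in the RefSeq table. Foxc1 and Nkx6-2 each held 32, Tbx1 16, Foxd1 15 and Meis2 13. A second Tbx1 start, within the gene, held 26. The CpG numbers of the members that were lower (15 to 50) and of those that were higher (13 and 32) overlapped. By the GENCODE annotation of the same build, Foxc1 spans 31806633 to 31812476, Barx1 48662998 to 48666507 and Foxd1 98354242 to 98359305 on chromosome 13. Tbx1 spans 18580979 to 18590671 on chromosome 16, Nkx6-2 139579376 to 139582797 on chromosome 7 and Meis2 115863064 to 116065839 on chromosome 2. Each window covers the annotated 5′ end of its gene except that of Meis2, which lies inside the gene. Windows were found for 34 of the 46 listed genes, 39 windows in all, with a median of 23 CpG and a range from 6 to 50, against a median of 7 over all windows. Of the 39, 24 held 20 or more CpG, compared with 26.5% of all windows.

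Most members were expressed at low levels in all 4 groups, and 2 or 3 of the 42 averaged 10 CPM or more in a group. The libraries held 7714164 to 10652151 counts, and levels are given as CPM, counts scaled to the effective library size. In WT mESCs, 22 of the 42 members averaged under 1 CPM, and in mutant mESCs 30 did. The numbers were 19 in WT and 27 in mutant EpiLCs. In mutant mESCs, 5 members had no count in any library, namely Pax3, Pax7, Lhx1, Gata5 and Lbx1. In WT mESCs this held for Gata3, a T cell and trophoblast factor, and in neither EpiLC group for any member.

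On a per-length scale, the authors' TPM, Nkx6-2 had the highest level of the members in mESCs, at 17.2 TPM in WT and 25.6 TPM in mutant cells. It encodes a homeobox repressor of the ventral neural tube. En2, a homeobox gene of the midbrain and hindbrain, had the highest level in EpiLCs, at 31 TPM in WT and 32.1 TPM in mutant cells. Irx2, an Iroquois homeobox gene, was among the 4 highest in each group, at 7.43 to 13.7 TPM. The median member stood at 0.791 TPM in WT mESCs, 0.420 in mutant mESCs, 1.07 in WT EpiLCs and 0.442 in mutant EpiLCs.

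**Figure D1:**
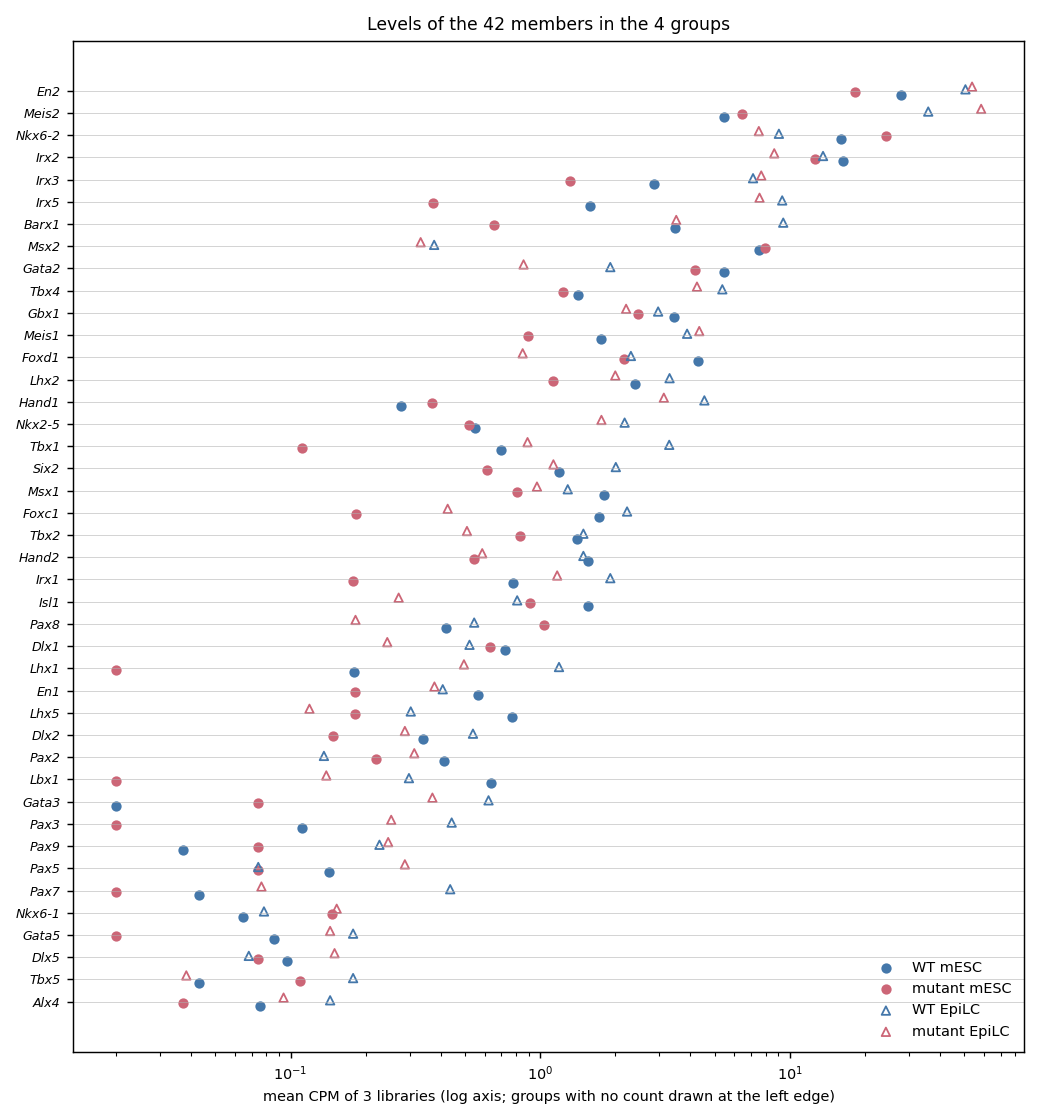
Mean CPM (log axis) of each of the 42 members in WT and mutant mESCs (circles) and EpiLCs (triangles), ordered by mean CPM, with 3 libraries behind each point; CPM are not scaled to gene length, so heights compare groups within a gene. Between 19 and 30 of the 42 lay under 1 CPM in a group.

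Summed over the 42 members, the level was 116 ± 4.6 CPM (SD, n = 3) in WT and 92.1 ± 4.8 CPM in mutant mESCs, and the libraries did not overlap. In EpiLCs the sums were 183 ± 8.3 and 177 ± 2.5 CPM, and the groups overlapped. Per length, the sums were 95.8 ± 5.8 and 74.9 ± 3.8 TPM in mESCs and 142 ± 7.8 and 117 ± 2.5 TPM in EpiLCs. Meis2 and En2 gave many of the EpiLC counts. Without these 2 genes, a choice made after their values were seen, the remaining 40 members summed to 82.8 ± 5.1 CPM in WT and 67.5 ± 3.8 in mutant mESCs, and to 96.3 ± 5.8 in WT and 64.6 ± 1.1 in mutant EpiLCs. Meis2 was the single member called higher in mutant EpiLCs, so leaving it out takes more from the mutant than from the WT sum. In bulk RNA, fewer cells with a transcript and less transcript per cell cannot be told apart.

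**Figure D2:**
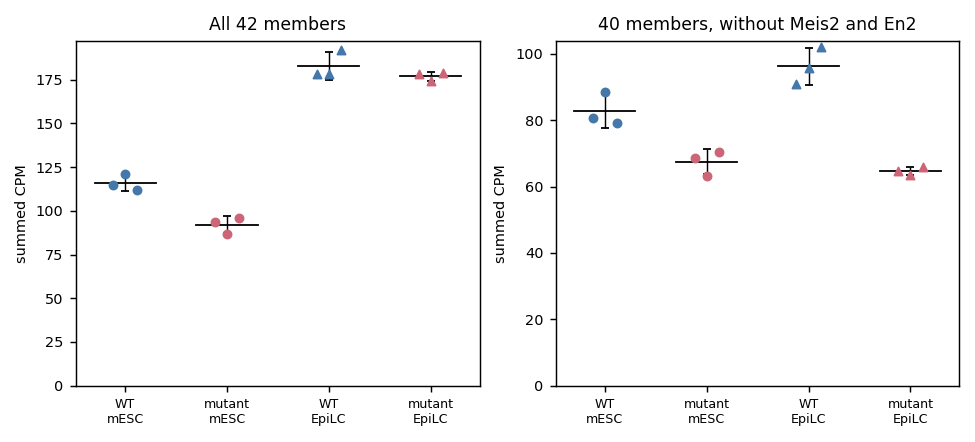
Summed CPM per library over all 42 members (left) and over 40 members without Meis2 and En2 (right), with the mean and SD of 3 libraries. The mESC groups did not overlap in either panel, while the EpiLC groups overlapped on the left and stood apart on the right. Meis2, left out on the right after its values were seen, was the single member called higher in mutant EpiLCs.

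The labels were checked first. Epop, listed under an older symbol, was at 472 ± 10.8 and 468 ± 6.1 CPM in WT and mutant mESCs and 209 ± 3.3 and 206 ± 9.4 CPM in WT and mutant EpiLCs (edgeR adjusted p = 0.877 and 0.867), which cannot tell the mutant from the WT libraries. Summed over 10 naive pluripotency markers the libraries held 3916 to 4098 CPM in mESCs and 195 to 447 CPM in EpiLCs, and over 9 markers of epiblast-like cells 185 to 208 and 1624 to 1731 CPM. No library stood apart from its group in the first principal components.

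In mESCs, the members that differed were mostly lower in mutant cells. Mean levels of Foxc1, Tbx1, Barx1 and Irx5 were 4.27- to 9.42-fold lower, and those of Hand2, Irx3, Lhx2, Foxd1 and En2 1.53- to 2.86-fold lower. Nkx6-2 was the single member that rose, by 1.53-fold. By the edgeR quasi-likelihood test (adjusted p under 0.05 over all 13879 genes tested), 9 members fell, 1 rose and 14 were not called among the 24 that passed the filter on low counts. Of all genes tested, 10.1% fell and 8.4% rose. Of the 24, 8 had all libraries of a group over the filter in WT groups alone, so these counts are a description of the tested members. Without WT mESC replicate 2, 6 members were called in place of 10. With the filter set on the total count alone, all 42 were tested: 8 fell, 1 rose and 33 were not called, beside 8.58% and 6.98% of the 16626 features so tested. The median log2 fold change over the 42 was -0.88, against -0.01 over all features. Without regard to any test, 16 of the 42 had every mutant mESC library below every WT one, and 1 had the reverse, or 38.1% and 2.38%, while 15% and 13.5% of all features did so.

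Foxc1 and Tbx1 had the largest log2 falls of the tested members. Foxc1, needed for the eye and for mesoderm derivatives, had 0.664, 1.94 and 2.57 CPM in the WT mESC libraries and 0, 0.104 and 0.445 CPM in the mutant ones. All 3 mutant libraries lay below the lowest WT library, though WT replicate 1 was not far above mutant replicate 3. The log2 fold change was -3.14 ± 0.69 (SE; edgeR adjusted p = 2.53e-04), and it was -4.68 without mutant replicate 3. Foxd1, a gene of kidney stroma and retina, had 3.77, 3.59 and 5.52 CPM in WT and 2.33, 2.81 and 1.34 CPM in mutant libraries. The groups did not overlap, with a log2 fold change of -0.97 ± 0.34 (edgeR adjusted p = 0.0338). The Foxd1 call was lost with DESeq2 (adjusted p = 0.0593) and without WT replicate 3 (0.184) or mutant replicates 1 (0.0632) or 3 (0.193). Tbx1, a T-box gene of the pharyngeal arches, had 0.664, 0.776 and 0.642 CPM in WT libraries and 0.333, 0 and 0 CPM in mutant libraries. These are few reads, 6, 8 and 5 in WT and 3, 0 and 0 in mutant libraries. The log2 fold change of -2.54 ± 0.87 (edgeR adjusted p = 0.0267) became -5.71 without mutant replicate 1. The Tbx1 call was lost without WT replicate 2 (0.077) or mutant replicates 2 (0.135) or 3 (0.125). The other tested T-box genes were not called: Tbx2, a gene of the heart and limb, had a log2 fold change of -0.74 ± 0.51 and Tbx4, a hindlimb gene, -0.21 ± 0.42.

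Among the Iroquois genes, which lie in clusters and pattern the neural tube and heart, the chromosome 8 pair fell in mutant mESCs. Irx5 had 1.88, 1.84 and 1.03 CPM in WT and 0.333, 0 and 0.779 CPM in mutant libraries. Irx3 had 2.10, 3.49 and 2.95 CPM in WT and 1.45, 2.08 and 0.445 CPM in mutant libraries. In both genes the groups were separate, although for Irx3 the highest mutant library was nearly level with the lowest WT one. The log2 fold change was -2.11 ± 0.50 for Irx5 (edgeR adjusted p = 7.77e-04), or -1.52 and -3.23 without mutant replicates 2 and 3. It was -1.09 ± 0.35 for Irx3 (edgeR adjusted p = 0.0153), with the call lost without WT replicate 2 (0.117) or mutant replicate 3 (0.191). Exons of Irx3 overlap Irx3os on the opposite strand, and reads of the pair cannot be told apart without strand. Irx1 and Irx2, the chromosome 13 pair, were not called, at -2.02 ± 0.78 (edgeR adjusted p = 0.0542) and -0.39 ± 0.15 (0.0594), though in each the mutant libraries lay below the WT ones. Six2, a nephron progenitor gene, was at -0.93 ± 0.56 (0.267).

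Barx1, a homeobox gene of stomach and facial mesenchyme, had 3.54, 4.46 and 2.44 CPM in WT mESCs and 1.33, 0.52 and 0.111 CPM in mutant mESCs. It had the lowest adjusted p of the members in this comparison, with a log2 fold change of -2.42 ± 0.40 (edgeR adjusted p = 5.51e-07), and the same direction and call without mutant replicate 1 (-3.4). En2 had 27.8, 26.8 and 29.0 CPM in WT and 18.8, 17.8 and 17.9 CPM in mutant libraries, a log2 fold change of -0.61 ± 0.10 (edgeR adjusted p = 1.04e-06). At these counts the libraries of each group were tightly grouped. Msx1 and Msx2, homeobox genes that respond to BMP signals, were not called, and Msx2 stood at 7.52 ± 0.63 CPM in WT and 7.99 ± 0.83 in mutant mESCs.

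Lhx2, a LIM homeobox gene of the forebrain and eye, had 2.55, 2.33 and 2.31 CPM in WT and 0.778, 1.04 and 1.56 in mutant mESCs. Hand2, a bHLH gene of the heart and limb, had 1.11, 1.36 and 2.18 CPM in WT and 0.667, 0.624 and 0.334 in mutant mESCs. Neither gene had overlapping groups, but both calls sat close to the threshold. The log2 fold change was -1.08 ± 0.41 for Lhx2 (edgeR adjusted p = 0.0482) and -1.47 ± 0.55 for Hand2 (0.0493), and each call was lost in 14 of 18 alternatives. With DESeq2 the adjusted p was 0.0512 for Lhx2 and 0.0657 for Hand2, and with the filter on the total count it was 0.0534 and 0.0738. For Lhx2 it was 0.05 to 0.175 without any WT mESC library, mutant mESC replicate 1 or 2, WT EpiLC replicate 1 or 3 or mutant EpiLC replicate 1 or 3, each left out singly. For Hand2 it was 0.0505 to 0.209 without WT mESC replicate 2 or 3, any mutant mESC library, WT EpiLC replicate 1 or 2 or mutant EpiLC replicate 1 or 3. Exons of Hand2 overlap Hand2os1 on the opposite strand. Hand1, a trophoblast and heart gene, had a log2 fold change of 0.29 ± 0.79, and Isl1, a gene of motor neurons and the heart, one of -0.76 ± 0.52, neither called.

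Nkx6-2 went the other way. It had 15.4, 16.6 and 16 CPM in the WT mESC libraries and 24.7, 24.0 and 24.6 CPM in the mutant ones, a log2 fold change of 0.61 ± 0.14 (edgeR adjusted p = 3.00e-04). All mutant libraries were above all WT ones, and the call held in each of the 18 alternatives. Exons of Nkx6-2 overlap those of Inpp5a on the opposite strand. Inpp5a, a phosphatase gene, was lower in mutant mESCs, at 40.9 ± 2.8 CPM in WT and 34.6 ± 2.0 CPM in mutant cells (edgeR adjusted p = 0.0428).

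Of the 18 members below the main filter, Lbx1 was the single one called in mESCs when all 42 were tested. Lbx1, a homeobox gene of migrating muscle precursors, had 10, 3 and 4 reads in the WT mESC libraries and none in the 3 mutant ones. With a floor of 3 counts over the mutant group it was at least 5.87-fold lower (edgeR adjusted p = 0.00615). Lhx5 and En1 also had every mutant mESC library below every WT one, at 0.773 ± 0.20 and 0.181 ± 0.061 CPM for Lhx5 and 0.561 ± 0.22 and 0.181 ± 0.061 CPM for En1, but neither was called (0.147 and 0.321). All 6 paired box genes were under the main filter, and none was called in this comparison. Pax8, a gene of thyroid and kidney, had 0.221, 0.776 and 0.257 CPM in the WT and 0.445, 1.35 and 1.34 CPM in the mutant mESC libraries, which overlapped.

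**Figure D3:**
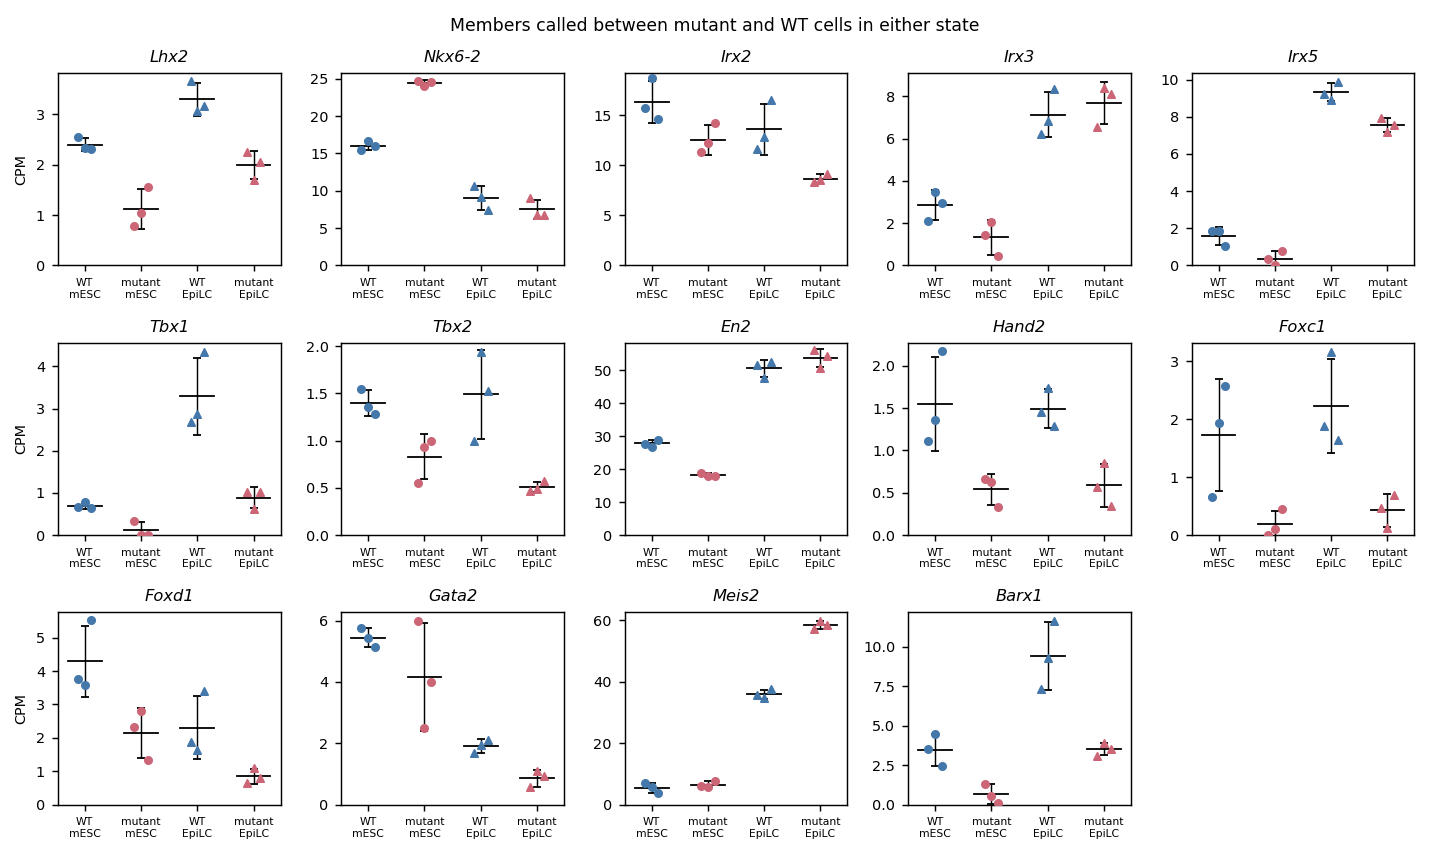
CPM per library of the 14 members called between mutant (red) and WT (blue) cells in mESCs (circles) or EpiLCs (triangles), with the mean and SD of 3 libraries. Foxc1, Foxd1, Tbx1 and Barx1 were lower in mutant cells of both states, and Nkx6-2 and Meis2 were higher in mutant cells of 1 state each.

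In EpiLCs, Foxc1, Tbx1, Foxd1 and Barx1 were again lower in mutant cells, joined by Tbx2, Gata2 and Irx2, with mean levels 1.57- to 5.25-fold lower. Meis2 was the single member that rose, by 1.63-fold. Of the 24 tested members, 7 fell, 1 rose and 16 were not called, and of all genes tested 8.82% fell and 7.02% rose. Foxc1 and Tbx1 had passed the filter only through WT EpiLCs, the higher group here, so these counts are a description. With all 42 tested, 6 fell and 1 rose, beside 7.36% and 5.83% of features, and the median log2 fold change was -0.66 against 0.00 over all features. Of the 42, 15 had every mutant EpiLC library below every WT one and 1 had the reverse, or 35.7% and 2.38%, against 14.5% and 12.9% of all features. The count of called members was 4 without WT EpiLC replicate 3 and 5 without mutant EpiLC replicate 1.

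Foxc1 had 1.89, 3.16 and 1.64 CPM in WT and 0.468, 0.122 and 0.687 in mutant EpiLCs, a log2 fold change of -2.34 ± 0.56 (edgeR adjusted p = 9.42e-04). Tbx1 had 2.67, 2.86 and 4.34 CPM in WT and 1.03, 0.608 and 1.03 in mutant EpiLCs, a log2 fold change of -1.85 ± 0.45 (edgeR adjusted p = 0.00129). Barx1 had 7.35, 9.29 and 11.6 CPM in WT and 3.09, 3.89 and 3.55 in mutant EpiLCs, a log2 fold change of -1.43 ± 0.26 (edgeR adjusted p = 7.29e-06). In these 3 genes the groups stood well apart, and the calls held in each of the 18 alternatives. Foxd1 had 1.89, 1.63 and 3.4 CPM in WT and 0.656, 1.09 and 0.802 in mutant EpiLCs, a log2 fold change of -1.44 ± 0.44 (edgeR adjusted p = 0.0124). The groups did not overlap, but WT replicate 3 lay far above the other WT libraries, and the call was lost without it (0.15) or without mutant replicate 1 (0.076).

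Irx2 had 11.6, 12.8 and 16.5 CPM in WT and 8.34, 8.51 and 9.16 in mutant EpiLCs, a log2 fold change of -0.65 ± 0.16 (edgeR adjusted p = 0.00182) that was just not called without WT replicate 3 (0.0534). Its neighbour Irx1 was not called, at -0.68 ± 0.47. The chromosome 8 genes Irx3 and Irx5, which had fallen in mutant mESCs, were at 0.10 ± 0.23 and -0.30 ± 0.22 in EpiLCs, neither called. The Irx3 groups overlapped, while for Irx5 every mutant EpiLC library lay below every WT one.

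Tbx2 had 1.00, 1.94 and 1.53 CPM in WT and 0.468, 0.486 and 0.573 in mutant EpiLCs, a log2 fold change of -1.54 ± 0.56 (edgeR adjusted p = 0.0439). Gata2, a GATA factor of blood progenitors, had 1.67, 1.94 and 2.11 CPM in WT and 0.562, 1.09 and 0.916 in mutant EpiLCs, a log2 fold change of -1.17 ± 0.43 (edgeR adjusted p = 0.0457). Neither gene had overlapping groups, and each call was lost in 9 of 18 alternatives. The adjusted p of Tbx2 was 0.0595 with DESeq2, 0.0676 with all 42 members tested, and 0.0809 to 0.199 without WT EpiLC replicate 2 or 3 or any mutant EpiLC library. That of Gata2 was 0.058 with DESeq2, 0.078 in a fit to the EpiLC libraries alone, and 0.0526 to 0.222 without WT mESC replicate 2, any WT EpiLC library or mutant EpiLC replicate 1 or 3. Tbx4, which lies 44.5 kb from Tbx2 on chromosome 11, was not called, at -0.34 ± 0.29. Hand2 and Lhx2, called lower in mutant mESCs, were not called in EpiLCs. Their log2 fold changes were -1.35 ± 0.55 (edgeR adjusted p = 0.0802) and -0.71 ± 0.35 (0.179). In both genes every mutant EpiLC library lay below every WT one.

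Meis2, a TALE homeobox gene whose protein binds DNA together with Hox and PBX proteins, had 35.5, 34.6 and 37.5 CPM in WT and 57.1, 59.7 and 58.5 in mutant EpiLCs. The libraries were tightly grouped and separate, with a log2 fold change of 0.70 ± 0.10 (edgeR adjusted p = 2.68e-09), called in each of the 18 alternatives. Its paralogue Meis1 was not called, at 3.88 ± 0.79 CPM in WT and 4.34 ± 1.1 in mutant EpiLCs. En2, which had fallen in mutant mESCs, was at 50.6 ± 2.7 CPM in WT and 53.8 ± 2.7 in mutant EpiLCs and was not called (edgeR adjusted p = 0.52).

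The 4 members lower in both, Foxc1, Foxd1, Tbx1 and Barx1, were 4 of the 9 lower in mESCs and 4 of the 7 lower in EpiLCs. They were 16.7% of the 24 tested members, beside 2.95% of all genes tested. The estimates had the same sign in both states for 18 of the 24 (75%), beside 60% of all genes. As 8 of the 24 passed the filter through WT groups alone, these shares are a description. No tested member was called in opposite directions, and 10 were called in neither state. The mESC and EpiLC comparisons share no library, but they come from the same fit to all libraries and so share its estimates of spread. The EpiLCs were made from the mESCs, so the overlap between states is not a repeat in separate lines. Whether a difference between the WT and mutant lines other than EPOP recurs in both states was not tested.

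**Figure D4:**
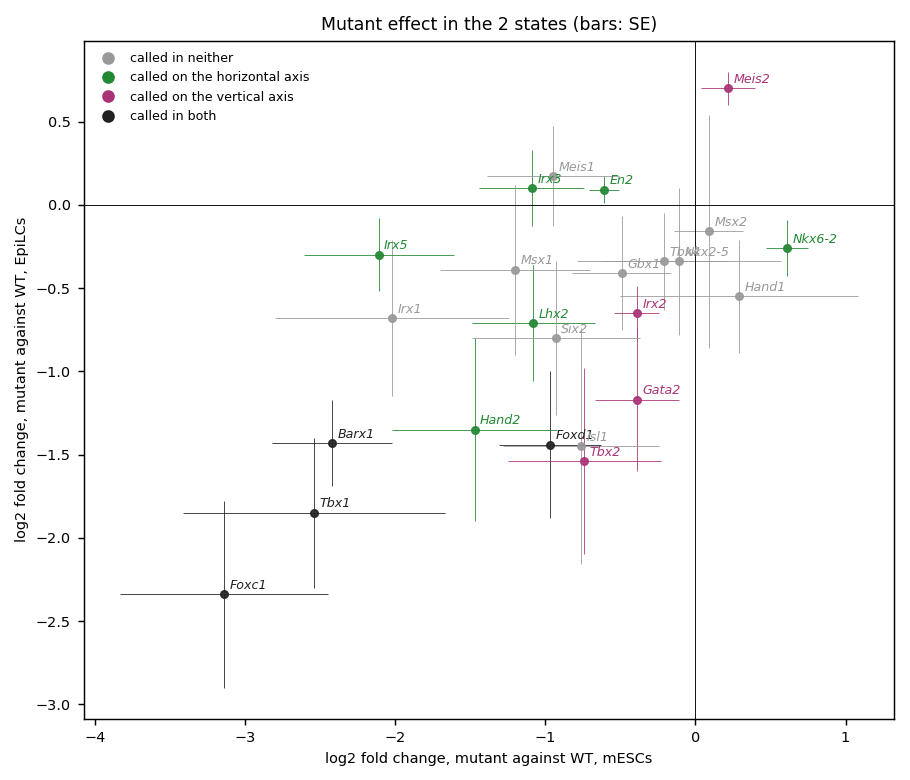
Log2 fold change of mutant against WT in mESCs (horizontal) and EpiLCs (vertical) for the 24 tested members, with SE bars and colours for the state in which each was called. Foxc1, Tbx1, Barx1 and Foxd1 lie low on both axes. Irx3, Irx5 and En2 lie low on the mESC axis and nearer 0 on the EpiLC axis, with Meis2 at the top.

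An interaction term tested whether mutant and WT differed unequally in the 2 states, as the log2 change in EpiLCs minus that in mESCs. It was positive and called for 3 of the 24 tested members and negative and called for 1, beside 4.68% and 5.05% of all genes (9.73% together). With all 42 tested the counts were again 3 and 1, beside 4.04% and 4.29% of features. En2 (0.71 ± 0.13; edgeR adjusted p = 2.7e-05), Irx5 (1.82 ± 0.56; 0.0201) and Irx3 (1.20 ± 0.42; 0.0485) had positive differences, as each was lower in mutant mESCs and not called in EpiLCs. Nkx6-2 had a negative one, -0.86 ± 0.22 (0.00309), since it was higher in mutant mESCs and stood at 9.05 ± 1.6 CPM in WT and 7.52 ± 1.3 in mutant EpiLCs. The calls of En2 and Nkx6-2 held in each of the 17 alternatives. That of Irx5 was lost without WT mESC replicates 1 (0.0569) or 2 (0.0643) or mutant mESC replicates 1 (0.0615) or 2 (0.179, with a difference of 1.22), and the difference was 2.93 without mutant mESC replicate 3. That of Irx3 was lost in 10, with 0.0674 by DESeq2 and 0.0731 to 0.267 without WT mESC replicate 2 or 3, mutant mESC replicate 1 or 3, WT EpiLC replicate 1 or 2 or mutant EpiLC replicate 2 or 3. Without WT mESC replicate 2, 2 members were called. For Meis2, called in EpiLCs and not in mESCs, the difference of 0.49 ± 0.21 was not called (0.13), nor was that of Foxc1 (0.80 ± 0.98; 0.714), Tbx1, Barx1 or Foxd1.

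Between mESCs and EpiLCs of the same genotype, the share of members called lay near that of all genes for the 24 tested and below it for the 42. In WT cells 62.5% of the 24 tested members were called, beside 62.7% of genes, and 42.9% of the 42, beside 54.7% of features. In mutant cells the shares were 70.8%, beside 66%, and 47.6%, beside 58.4%. By direction, of the 24 tested in WT cells, 11 rose and 4 fell, beside 31.7% and 31% of all genes. Of all 42, 14 rose and 4 fell, beside 27.2% and 27.5% of features. In mutant cells 11 rose and 6 fell of the 24, beside 33.4% and 32.6% of genes, and 13 and 7 of the 42, beside 29.3% and 29.1%. Every EpiLC library lay above every mESC library for 15 of the 42 and below for 5 in WT cells, beside 30.1% and 28.2% of features, and for 15 and 7 in mutant cells, beside 32% and 29.5%. The same 11 rose in both genotypes, and the 4 that fell in WT cells also fell in mutant cells. That is 45.8% and 16.7% of the 24, beside 27% and 26.3% of all genes. Of the members called here, Hand1, Irx5, Nkx2-5, Irx1 and Tbx1 passed the filter only through EpiLC libraries. Msx2 and Isl1 passed it only through mESC libraries. The shares of the 24 thus include members tested because they were high in 1 state, and are a description. These comparisons share the libraries of the mutant comparisons, so the values are given side by side and no relation between them is drawn.

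Hand1 had the largest rise of the tested members in WT cells, from 0.443, 0.388 and 0 CPM in mESCs to 6.68, 3.67 and 3.28 CPM in EpiLCs, with a log2 change of 3.89 ± 0.51 (edgeR adjusted p = 3.33e-11). In mutant cells it went from 0.368 ± 0.36 to 3.13 ± 0.63 CPM (3.05 ± 0.52, or 4.15 without mutant mESC replicate 1). Meis2 rose from 6.98, 5.63 and 3.72 CPM in WT mESCs to the values above, a log2 fold change of 2.70 ± 0.14 (edgeR adjusted p = 4.23e-39), and from 6.43 ± 1.1 to 58.5 ± 1.3 CPM in mutant cells (7.35e-50). Both genes were clearly separate between the states in each genotype.

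Irx5 rose from 1.58 ± 0.48 CPM in WT mESCs to 9.24, 8.88 and 9.85 CPM in WT EpiLCs, a log2 fold change of 2.52 ± 0.28 (edgeR adjusted p = 2.47e-14). In mutant cells it rose from 0.371 ± 0.39 to 7.57 ± 0.39 CPM, with a log2 change of 4.33 ± 0.38, or 3.74 and 5.44 without mutant mESC replicates 2 and 3. Tbx1 rose by 2.21 ± 0.47 in WT (edgeR adjusted p = 2.32e-05) and 2.90 ± 0.82 in mutant cells (6.07 without mutant mESC replicate 1). Nkx2-5, a cardiac homeobox gene, rose from 0.221, 0.776 and 0.642 CPM to 1.78, 2.76 and 1.99 CPM in WT cells, with a log2 change of 1.96 ± 0.53 (edgeR adjusted p = 7.44e-04). In mutant cells its change was 1.73 ± 0.56, or 2.62 without mutant mESC replicate 1, and the call was lost without mutant mESC replicate 2 (0.0569) or mutant EpiLC replicate 2 (0.0966). The other members that rose in both genotypes were Tbx4, Barx1, Irx1, Irx3, Meis1 and En2, by 0.86 to 1.90 in WT and 1.57 to 2.63 in mutant cells on the log2 scale. Of these, the Irx1 rise in WT cells was not called without WT mESC replicate 2 (0.0741) or WT EpiLC replicate 1 (0.253). In mutant cells the value without 1 mESC library was 3.38 for Barx1 (replicate 1, from 2.39), 3.27 for Irx1 (replicate 2, from 2.63) and 2.48 for Tbx4 (replicate 3, from 1.78).

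Msx2 showed the steepest fall between states. It had 6.98, 7.37 and 8.21 CPM in WT mESCs and 0.557, 0.102 and 0.469 CPM in WT EpiLCs, a log2 fold change of -4.30 ± 0.39 (edgeR adjusted p = 1.75e-19), and -4.56 ± 0.39 in mutant cells. Gata2 fell from 5.76, 5.43 and 5.13 CPM in WT mESCs, with log2 fold changes of -1.51 ± 0.32 (edgeR adjusted p = 1.51e-05) and, in mutant cells, -2.29 ± 0.38. Nkx6-2 fell by 0.82 ± 0.15 in WT (1.49e-06) and 1.68 ± 0.15 in mutant cells, in each case with separate groups. Foxd1 fell by 0.89 ± 0.34 in WT (edgeR adjusted p = 0.0177), a call lost without WT mESC replicate 3 (0.122) or WT EpiLC replicate 1 (0.068) or 2 (0.107), and by 1.36 ± 0.44 in mutant cells. Irx2 and Isl1 were called lower in mutant cells, at -0.54 ± 0.16 and -1.61 ± 0.70, and not in WT cells. The Isl1 value was -2.27 without mutant EpiLC replicate 1, and its call was lost without mutant mESC replicate 1 (0.0539) or 3 (0.13) or mutant EpiLC replicate 2 (0.168) or 3 (0.0528).

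**Figure D5:**
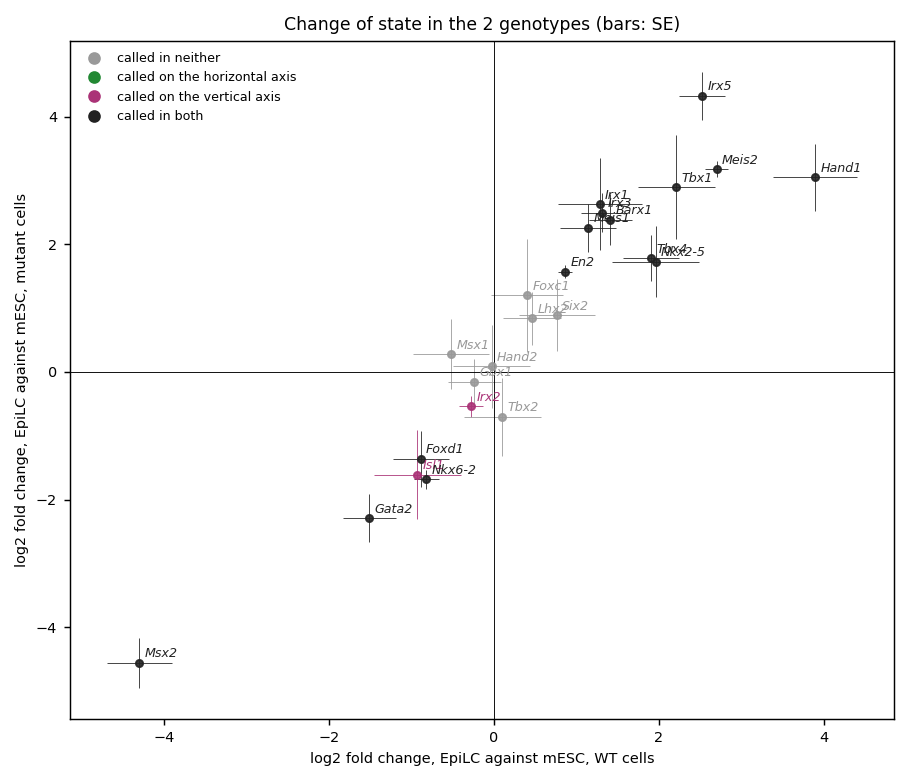
Log2 fold change of EpiLC against mESC in WT (horizontal) and mutant (vertical) cells for the 24 tested members, with SE bars and colours for the genotype in which each was called. Msx2 lies at -4.30 and -4.56, and Irx5, Meis2 and Hand1 at the upper right.

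Among the members below the main filter, Lhx1, a gene of the head organizer and kidney, rose in both genotypes when all 42 were tested. It had 4, 1 and 0 reads in WT mESCs and 9, 17 and 7 in WT EpiLCs (edgeR adjusted p = 0.00567), and none in mutant mESCs against 7, 4 and 3 in mutant EpiLCs (0.00198; at least 4.74-fold with the floor of 3 counts). Gata3 had no read in WT mESCs and 4, 7 and 6 in WT EpiLCs, at least 5.62-fold higher (0.00163). Pax7, a gene of muscle stem cells, rose in WT cells (0.0467) and Pax3, a gene of neural crest and muscle, in mutant cells (0.0357; at least 2.37-fold), while Pax8 fell in mutant cells, from 1.04 ± 0.52 to 0.182 ± 0.065 CPM (0.00726). These calls rest on at most 33 reads a group, and the floor covers counting error only. Exons of Gata3 and Pax8 overlap other annotated genes. Dlx1, Dlx2 and Dlx5, which act in forebrain interneurons and the jaw, were not called in any of the 5 comparisons.

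Of 57 other genes of the same families, written down as a list of relatives, 26 were tested. In mESCs 4 fell and 3 rose in mutant cells, beside 10.1% and 8.4% of all genes. In EpiLCs 7 fell and 3 rose, beside 8.82% and 7.02%. The medians were -0.02 and -0.36 on the log2 scale. With the filter on the total count, 50 relatives were tested, and 7 fell and 3 rose in each state. Their medians were then -0.41 in mESCs and -0.39 in EpiLCs, beside -0.88 and -0.66 for the 42 members under that filter. The largest falls in mESCs were of Foxd2, from 0.792 ± 0.36 to 0.0741 ± 0.13 CPM, Nkx2-4, from 0.606 ± 0.46 to 0.0741 ± 0.13 CPM, and Lmx1b, from 1.70 ± 0.38 to 0.354 ± 0.33 CPM. In EpiLCs they were of Gata6, an endoderm gene, from 13.9 ± 2.6 to 1.12 ± 0.45 CPM, Lmx1b, from 0.699 ± 0.084 to 0.0624 ± 0.11 CPM, and Tbx18, from 1.96 ± 0.58 to 0.247 ± 0.21 CPM. Gbx2 rose in both states, by 0.80 ± 0.08 and 0.77 ± 0.05 on the log2 scale. Foxd3 and Eomes rose in mESCs, by 0.68 ± 0.11 and 0.68 ± 0.12, and Nkx1-2 and Olig3 in EpiLCs, by 1.09 ± 0.25 and 0.94 ± 0.21.

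Markers of other cell types were measured beside these results. Summed over 12 primitive and definitive endoderm markers, the level was 196 to 203 CPM in WT and 115 to 124 in mutant EpiLCs, with 5 of 10 tested markers lower, and 193 to 212 and 184 to 194 CPM in mESCs, with 2 lower and 1 higher; Cer1 was at 0 in both mESC groups. Over 12 neural progenitor markers the sums were 323 to 345 and 314 to 325 CPM in WT and mutant mESCs, with 3 of 6 tested lower, and 346 to 353 and 431 to 446 CPM in EpiLCs, with 3 higher; Neurog2 and Dcx were at 0 in both mESC groups. Over 13 fibroblast and feeder markers they were 38.2 to 47.0 and 30.5 to 42.8 CPM in mESCs, with 2 of 8 lower, and 43.0 to 46.9 and 37.1 to 44.9 CPM in EpiLCs, with 1 lower and 1 higher; Col3a1 was at 0 in every group, and Lum and Postn in all but mutant EpiLCs. Over 11 mesoderm and cardiac markers they were 31.1 to 35.4 and 28.2 to 33.6 CPM in mESCs, with none of 7 called, and 179 to 186 and 152 to 166 CPM in EpiLCs, with 2 lower. Over 9 trophoblast markers, which include Hand1 and Gata3, they were 65.2 to 75.0 and 73.0 to 79.9 CPM in mESCs, with 1 of 4 higher, and 26.2 to 26.7 and 19 to 20.7 CPM in EpiLCs, with 1 lower; Elf5 was at 0 in all groups but WT mESCs. Pdgfra stands in the endoderm, fibroblast and mesoderm lists. The 10 naive pluripotency markers summed to 422 to 447 CPM in WT and 195 to 207 in mutant EpiLCs, with 9 of 10 lower, and to 3916 to 4098 and 3977 to 4031 CPM in mESCs, with 1 lower and 1 higher. The 9 markers of epiblast-like cells summed to 188 to 208 CPM in WT and 185 to 192 in mutant mESCs, with 4 of 9 lower (Fgf5, Pou3f1, Sox3 and Dnmt3a) and Dnmt3l higher. In EpiLCs they summed to 1624 to 1664 and 1702 to 1731 CPM, with 6 of 9 higher and 3 lower. The part of these markers in the members' differences was not tested.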

How the data were processed

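The authors' deposited table gives raw counts per gene and TPM for 12 libraries. The submitters' processing notes name the mm10 build, STAR 2.5.3a, Subread, featureCounts and edgeR 3.18.1. The strand setting of the counting is not given. The 12 per-library CPM columns and the authors' own comparisons were not used. Of 19656 features, 26 named as spreadsheet dates, with 0.182 to 0.212% of a library's counts, were left out. A chi-square test over genes gave 1.9 to 2.92 per degree of freedom between replicates, more than counting noise.

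Counts were filtered with filterByExpr (about 1.11 CPM in 3 libraries), scaled by TMM, with factors from 0.984 to 1.01, and fitted in R 4.3.3 with the robust quasi-likelihood test of edgeR 4.0.16, in 1 fit to all 12 libraries with 8 residual degrees of freedom, with Benjamini-Hochberg adjustment over 13879 genes and calls at 0.05. CPM use effective library sizes. The SE of a log2 fold change is its absolute value divided by the square root of the quasi-likelihood F statistic. It is derived from the test and is not a standard error given by the fit. The authors' deposited TPM served for levels compared between genes and for summed levels per length. Alternatives were relative log expression factors, DESeq2 1.42.0, 2 other filters, a fit to the compared groups, a replicate block and leaving out each library.

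Members, lists and the rule for named genes were chosen with earlier results of these data known. The rule gives full values to members called between mutant and WT or in the difference of effects, to the 5 largest rises and falls between states in WT cells, and to the 3 largest called rises and falls of relatives; other members named singly were chosen after their values were seen. Coordinates and exon overlaps are from GENCODE M21 (GRCm38), which matched all 46 names, and promoters from RefSeq (GRCm38.p6). No label says whether replicates came from separate cultures, so p-values measure the spread between libraries, which may be technical. The fitting script was tested on simulated data with known changes before use. The changed genes were drawn from those averaging over 1 CPM, so the test does not cover members below that level.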

Additional observations from a re-analysis of the deposited data

Results flagged for a closer look

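For 4 of the 24 tested members, the effect of the mutant differed between mESCs and EpiLCs by the interaction test, which called 9.73% of all genes. The difference, as the log2 change in EpiLCs minus that in mESCs, was 0.71 for En2, 1.20 for Irx3, 1.82 for Irx5 and -0.86 for Nkx6-2. Of these, En2 and Nkx6-2 have the higher counts and were called under each of the 17 alternatives run. The Irx3 call was lost in 10 of the 17, and the Irx5 call in 4, with an Irx5 value between 1.22 and 2.93. Without WT mESC replicate 2, 2 members were called.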

How the results depend on the processing

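Over the 5 comparisons, 54 calls of members were recomputed under 17 or 18 alternatives each, 968 values in all. None reversed, 83 lost the call, and 39 of the 54 calls were lost under no alternative run. Counts of called members were within 1.5 times the reported ones except when certain libraries were left out. Leaving out 1 library, the count ranged from 6 to 10 for mutant against WT in mESCs (reported 10; lowest without WT mESC replicate 2), from 4 to 8 in EpiLCs (8), from 2 to 4 for the difference of effects (4), from 13 to 16 for EpiLC against mESC in WT cells (15) and from 15 to 17 in mutant cells (17). The cause was not tested beyond the smaller number of samples. Under the other alternatives the counts were 7 to 10, 6 to 8, 3 to 4, 15 to 18 and 17 to 20. With the replicate block they were 8, 7, 4, 15 and 17; same-numbered libraries did not deviate together (correlations of deviations from -0.0443 to 0.0274), so the numbers were not treated as pairs. Depth limits the members under about 1 CPM, where a few reads decide the value.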
